A study of Mus musculus with 6 samples.

Results

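A set of 10 genes known from macrophages and dendritic cells was followed in mouse hematopoietic stem and progenitor cells treated with valproic acid (VPA). The genes, Mrc1, Havcr2, Batf3, Irf8, Csf1r, Cd68, Itgax, Spi1, Cd14 and Emr1, were taken by gene symbol from the array annotation, which lists Emr1 under its present symbol Adgre1. The members were chosen by name with the signal difference between the VPA and control arrays already known, so their values below are a description and carry no test. For 8 of the 10 genes (of 16593 genes named in all) the annotation names a probe, 11 of the 25697 probes in the table, whereas Csf1r and Cd68 have no named probe and were not analysed here. The cells were bone marrow cells of C57Bl/6 mice with the L-S+K+ phenotype, lineage-negative cells that carry Sca-1 and Kit. In the VPA group 3 cultures were kept for 24 h with 1 mM VPA, a histone deacetylase inhibitor, and in the control group 3 cultures were kept for 24 h with the growth factors alone. The medium of both groups held serum, stem cell factor and GM-CSF, a colony-stimulating factor that itself drives the growth of macrophages and dendritic cells. The age of the mice is not given in the labels. RNA of each culture was hybridised to 1 single-colour Illumina array, and uncultured cells were not analysed here.

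Macrophages and dendritic cells arise from bone marrow progenitors under a small set of transcription factors. PU.1, the product of Spi1, opens the myeloid program, IRF8 directs progenitors towards monocytes and dendritic cells and away from neutrophils, and BATF3 is needed for the dendritic cells that cross-present antigen. The mature cells are recognised by surface receptors such as the mannose receptor (Mrc1), the Adgre1 receptor of tissue macrophages, CD14 and the integrin alpha chain encoded by Itgax, and progenitors can carry low levels of transcripts of the program before they differentiate.

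Signals are given as the deposited raw intensity and as normalised log2 values, on which all changes were computed. A probe counts as detected on an array where its detection p-value, from the negative controls of that array, was under 0.05. VPA replicate 1 was dimmer than the rest, with a median raw signal of the measured probes of 226, against 456 to 647 on the other 5 arrays, and its normalised values correlated with those of the other VPA arrays at r = 0.957 and 0.947 across 11115 probes, which are not independent replicates. For most members and for some of the list genes the values are given with and without it. Of 21 stem and progenitor genes named on the array 15 were measured, Cd34, Flt3, Meis1, Gata2 and Myb among them, while Erg, Hlf, Mycn, Prdm16 and Slamf1 were detected on 0 arrays. Ly6a and Kit, which encode the surface markers of the sort, were not analysed here. Of 16 lymphoid genes named on the array 6 were detected on 0 arrays, Cd3e, Cd8a and Pax5 among them, and 3 on all 6 (Cd79b, Ccl5 and Nkg7). Of 16 neutrophil genes 13 were detected on all 6 arrays, as was the globin gene Hba-a1, whereas Itgam was detected on 0.

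Mrc1, the mannose receptor of macrophages and some dendritic cells, was lower with VPA. Its raw signal was 102, 162 and 160 on the VPA arrays, against 343, 244 and 364 on the control arrays. The normalised log2 signal was 5.31, 6.09 and 5.87 with VPA, against 7.33, 7.15 and 7.76 in control. Every VPA array lay below every control array, and the probe was detected on 2 of 3 VPA arrays and on all 3 control arrays. The log2 change was -1.66 ± 0.25 (SE, n = 3 per group), or 3.15-fold lower, and -1.43 without VPA replicate 1, the array on which the probe was not detected. In a bulk culture, fewer cells with the transcript and less transcript per cell cannot be told apart, for Mrc1 or any gene below.

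Havcr2 encodes Tim-3, a receptor of dendritic cells, macrophages, mast cells and T cells, and was read by 2 probes. The first gave normalised log2 signals of 6.78, 6.25 and 6.33 on the VPA arrays, against 7.76, 7.68 and 7.68 on the control arrays. The second gave 6.33, 6.58 and 6.48 with VPA, against 7.70, 7.69 and 7.63 in control. Both were detected on all 6 arrays, and in both the groups were apart, and the SD of the control values was 0.0443 for the first probe and 0.0407 for the second. The log2 change was -1.25 ± 0.18 by the first probe and -1.21 ± 0.14 by the second, that is, 2.38-fold and 2.32-fold lower with VPA. Without VPA replicate 1 the values were -1.41 and -1.14.

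Adgre1, a macrophage surface receptor of the adhesion G protein-coupled family and the gene listed as Emr1, was read by 3 probes, and its groups overlapped. The first probe gave 7.57, 8.19 and 7.05 with VPA, against 6.87, 6.35 and 7.24 in control. The third gave 6.76, 7.90 and 7.15 with VPA, against 6.67, 5.87 and 6.95 in control. On both, VPA replicate 2 was the highest array and control replicate 2 the lowest. The log2 changes were 0.78 ± 0.33 and 0.77 ± 0.36. Without VPA replicate 2 they were 0.49 and 0.46, and without control replicate 2 0.55 and 0.46. The second probe was detected on 0 of the 6 arrays, and gives no level.

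Itgax, the alpha chain of an integrin used as a dendritic cell marker, was detected on 0 of 3 VPA arrays and 0 of 3 control arrays, with raw signals of 93.8 to 111 with VPA and 110 to 162 in control. Cd14, the co-receptor for bacterial lipopolysaccharide on monocytes and macrophages, was detected with VPA on 2 of 3 arrays at raw signals of 106 and 141, and not on the third at 127. On the control arrays it was not detected, at 129 to 139. Neither gene passed the detection filter, and no fold change is given for them.

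**Figure D1:**
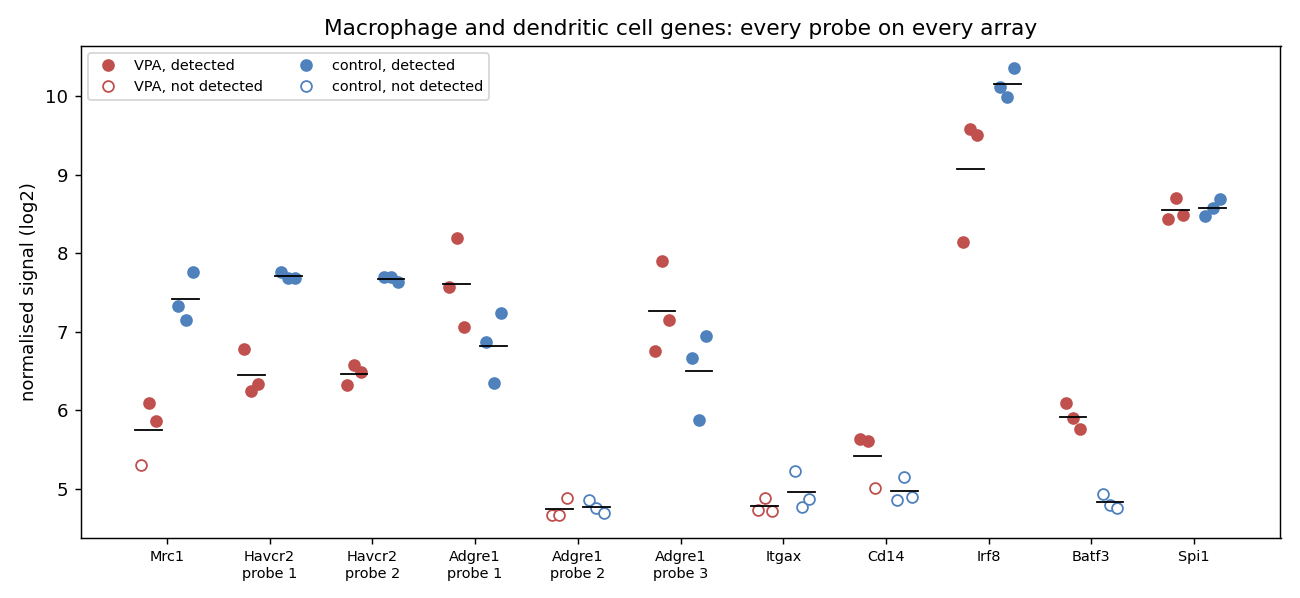
Normalised log2 signal (vertical axis) of each of the 11 probes on each array, the VPA arrays in red left of the control arrays in blue, in replicate order. Filled points were detected, open points were not, and the bars are group means. Mrc1, both Havcr2 probes and Irf8 are lower on every VPA array, Batf3 is higher on every VPA array and detected on those alone, and the Spi1 and Adgre1 values overlap between the groups.

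The transcription factors differed among themselves. Irf8 had normalised log2 signals of 8.14, 9.58 and 9.50 with VPA, against 10.12, 9.98 and 10.35 in control. The raw signals were 189, 862 and 773 with VPA, against 1647, 1162 and 1704 in control. All VPA arrays lay below all control arrays, with VPA replicate 1 far below the other VPA arrays (SD 0.81 with VPA and 0.19 in control). The log2 change was -1.08 ± 0.37 (2.11-fold lower), and without VPA replicate 1 it was -0.61 ± 0.14. The change was thus smaller without the dim array, with the VPA values still below every control value.

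Batf3 was at the edge of detection. The normalised log2 signal was 6.10, 5.90 and 5.76 on the VPA arrays, all detected, against 4.94, 4.80 and 4.76 on the control arrays, none of them detected. Its control level is therefore only a bound, and the gene was at least 1.26-fold higher with VPA. The fitted log2 change was 1.09 ± 0.15, and 1.00 without VPA replicate 1. On the raw scale the groups overlapped, at 113, 153 and 156 with VPA against 145, 111 and 122 in control, the lowest VPA value being that of the dim array. A member detected on no control array had to be detected on all 3 VPA arrays to be measured at all, so Batf3 could enter only as a rise.

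Spi1 differed between the groups by less than its spread between replicates. It read 8.44, 8.71 and 8.49 with VPA, against 8.47, 8.57 and 8.69 in control, on the normalised log2 scale. The values interleave, and the log2 change was -0.03 ± 0.15, or 0.02 without VPA replicate 1. The gene was detected on all 6 arrays.

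Of the 10 genes, 6 passed the detection filter: Mrc1, Havcr2, Irf8, Batf3, Spi1 and Adgre1, with 8 of their probes. The limma comparison, with Benjamini-Hochberg adjustment over all 11115 kept probes at 0.05 and calls counted over 7967 measured genes, called 1 of the 6 higher (Batf3), where 3.41% of all genes were called higher, and 2 lower (Mrc1 and Havcr2), where 0.314% were called lower. In 1 of the 6 the VPA values all lay above the control values, against 16.7% of all genes, and in 3 they all lay below, against 11.2%. The genes were picked with this contrast known, so nothing is read from these counts. The median log2 change of the 6 was -0.56, or -0.30 without VPA replicate 1, and that of all measured genes -0.02.

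Each measured probe of Mrc1, Havcr2, Irf8 and Adgre1 kept its direction under every alternative that gave it a value, while the size and the calls varied. Batf3 could enter only as a rise, so its direction was fixed in advance and its staying higher is no support. Some alternatives change only the test or the detection limit, and these leave a log2 change as it is. Without background correction the log2 change of Mrc1 was -0.82, that of Havcr2 -0.71 and -0.69 by its probes and that of Batf3 0.48, and in the deposited log2 values they were -0.68, -0.58, -0.56 and 0.41. The calls of Mrc1 and Batf3 ended when any of the control arrays was left out, as did that of Havcr2 by its first probe, while its second probe was still called without control replicate 3. Without VPA replicate 2 the calls of Batf3 and of the first Havcr2 probe ended, and that of Mrc1 did not. The call of Batf3 also ended without background correction and in the deposited values. Irf8 passed only without VPA replicate 1 in the fit and with array weights. Adgre1 passed only with array weights, and Spi1 in none, with log2 changes from -0.12 to 0.12.

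**Figure D2:**
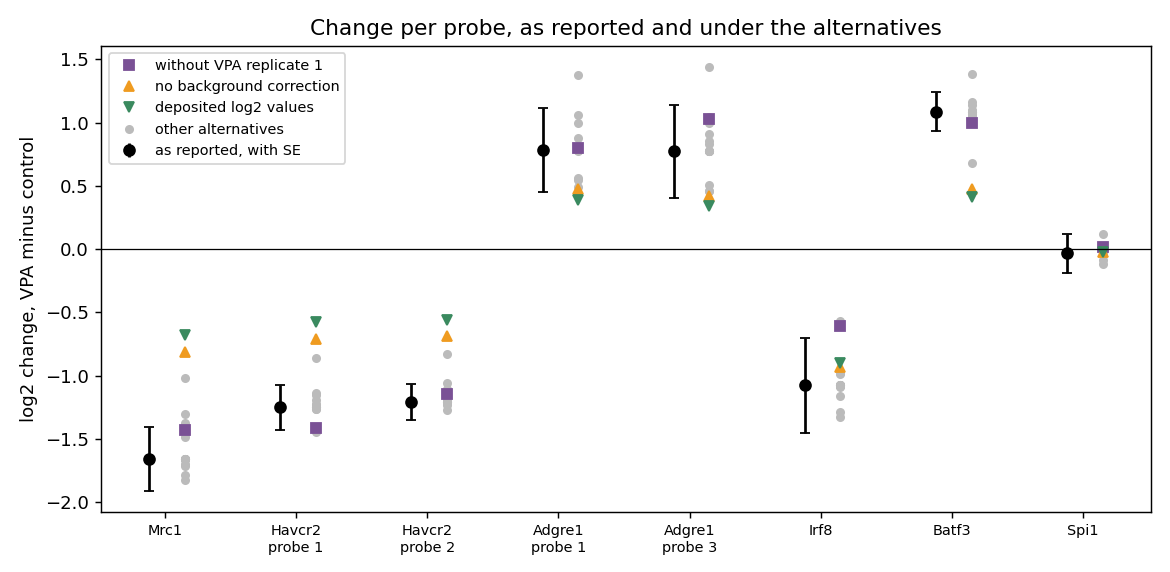
Log2 change, VPA minus control (vertical axis), of the 8 measured probes. Black points with bars are the reported values with their SE (3 arrays per group) and the points to their right are the alternatives, with 3 of them marked. The changes of Mrc1, Havcr2 and Batf3 are smaller without background correction, and that of Irf8 is smaller without VPA replicate 1, where it is -0.61.

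The stretch before each gene's start shows how unlike the promoters of these genes are. RefSeq windows (build GRCm38.p6) were available for 6 of the 10 genes, and the 250 bases before the gene start are shown for the 4 whose values did not overlap between the groups. They are written 5′ to 3′ on the plus strand, on which all 4 genes lie, with the core letters bound by PU.1, GAGGAA or its reverse complement, in capitals. Mrc1 lies at chr2:14229164-14229413, Havcr2 at chr11:46454681-46454930, Irf8 at chr8:120736108-120736357 and Batf3 at chr1:191098164-191098413, each ending just before the annotated gene start and so outside the gene.
Mrc1: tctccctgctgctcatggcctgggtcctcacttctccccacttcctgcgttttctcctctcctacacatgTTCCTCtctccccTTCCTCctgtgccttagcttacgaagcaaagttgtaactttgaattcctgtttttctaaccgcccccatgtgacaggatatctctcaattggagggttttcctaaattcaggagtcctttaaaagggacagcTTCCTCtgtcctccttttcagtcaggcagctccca
Havcr2: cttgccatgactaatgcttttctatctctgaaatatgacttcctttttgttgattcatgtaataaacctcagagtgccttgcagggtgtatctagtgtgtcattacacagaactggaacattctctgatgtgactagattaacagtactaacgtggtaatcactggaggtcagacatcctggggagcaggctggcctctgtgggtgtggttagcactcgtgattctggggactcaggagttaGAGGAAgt
Irf8: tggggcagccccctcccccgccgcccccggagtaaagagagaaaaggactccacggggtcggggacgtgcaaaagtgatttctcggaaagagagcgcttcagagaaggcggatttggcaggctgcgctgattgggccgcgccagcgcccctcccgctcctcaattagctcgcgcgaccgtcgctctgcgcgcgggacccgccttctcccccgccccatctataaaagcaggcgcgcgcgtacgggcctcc
Batf3: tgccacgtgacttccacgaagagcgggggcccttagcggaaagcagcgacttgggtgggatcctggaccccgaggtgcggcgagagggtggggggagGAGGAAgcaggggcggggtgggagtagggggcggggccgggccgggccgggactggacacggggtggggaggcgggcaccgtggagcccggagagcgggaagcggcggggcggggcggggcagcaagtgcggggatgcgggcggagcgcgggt

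The Mrc1 window held 3 matches to the PU.1 core, the Havcr2 window 1, the Batf3 window 1 and the Irf8 window 0, and 23.3% of all 32851 RefSeq windows of this length hold at least 1 on either strand. The Mrc1 and Havcr2 windows had 3 and 2 CpG dinucleotides, whereas those of Irf8 and Batf3 had 29 and 27, more than or as many as in 94.1% and 92.4% of all windows. GC content was 49.6% for Mrc1 and 44.8% for Havcr2, against 67.2% for Irf8 and 76% for Batf3. The Batf3 window held 5 matches to the GC box letters GGGCGG, 2 of them sharing a base, present in 32.7% of windows, and 1 to the E-box CACGTG, present in 6.02%. The Irf8 window held TATAAA 31 bases before the start, found in 12.4% of windows, and the Havcr2 window the AP-1 letters TGANTCA, found in 6.75%. An IRF repeat and an ETS-IRF composite motif, found in 2.98% and 2.3% of windows, matched in none of the 4, which says only that these letters are not in these windows. A match is a run of letters, and no binding was measured.

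**Figure D3:**
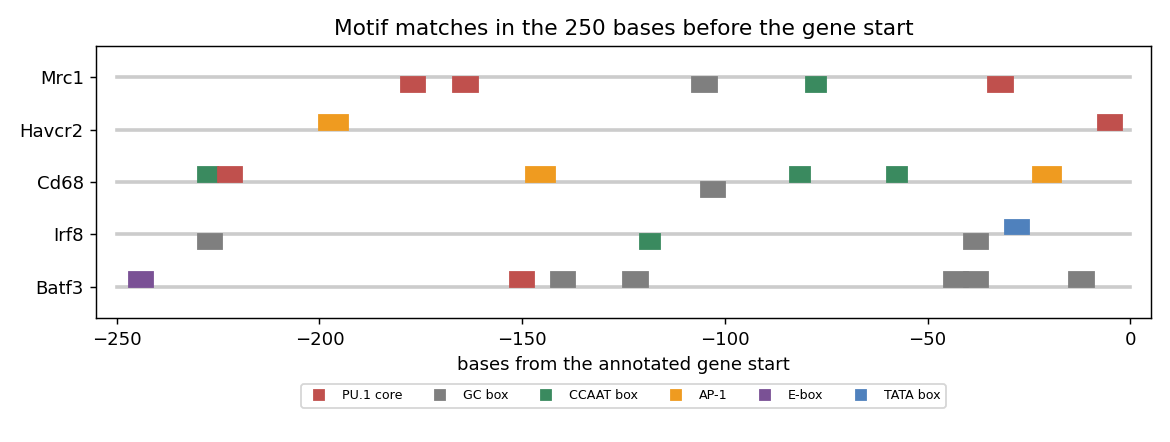
Matches to 6 motifs in the 250 bases before the annotated start of Mrc1, Havcr2, Cd68, Irf8 and Batf3 (horizontal axis, bases from the start). Blocks above a line are on the coding strand, and those below on the other strand; palindromic motifs are drawn above. Mrc1 has 3 PU.1 core matches and Batf3 has 5 GC boxes; Cd68 has no named probe and is shown for its window alone.

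Genes whose profiles over the 6 arrays lay nearest to each member were found by the root mean square (RMS) difference of log2 values centred on the gene's mean, among 7842 measured genes. Nearest to Mrc1 were Rapsn (0.26), Fbxw4 (0.27) and Ncf1 (0.27), a subunit of the phagocyte NADPH oxidase, while Mrc1 itself varied by 0.88 about its mean. Nearest to Havcr2 were Myl4 (0.15), Itgb6 (0.17) and Klhl30 (0.17). Nearest to Batf3 were Tst (0.06), Gimap8 (0.06) and Anxa6 (0.09), and nearest to Irf8 were Mlx (0.08), Dsn1 (0.11) and Psmd11 (0.14). For Adgre1 they were Slpi (0.10), Samd14 (0.19) and Hipk2 (0.23). Spi1 varied by only 0.11, so its nearest genes are other flat ones such as Plin3 (0.03). The arrays are shared by all these genes, the dim one included, so the likeness is a description.

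The rest of the macrophage genes lay on both sides of 0, 10 above and 13 below. Over all 7967 measured genes, against which each list below is to be read, 48% lay above 0 and 52% below, 3.41% were called higher and 0.314% lower, and an unadjusted p under 0.05 was reached by 11.5% as higher and by 5.59% as lower. Of 49 other genes of monocytes and macrophages 45 were named on the array and 23 measured. Of the 45, 18 were detected on 0 arrays, among them the complement genes C1qa, C1qb and C1qc, Ccr2, Mertk and Trem2. A further 19 were detected on all 6 arrays, Lyz2, Cx3cr1, Fcgr3, Cd163, Ctss and Tyrobp among them. By limma 2 of the 23 rose and 0 fell, while 4 higher and 3 lower genes had an unadjusted p under 0.05, with a median log2 change of -0.26, or 0.000285 without VPA replicate 1. Their summed linear signal was 40780 to 45820 with VPA and 35230 to 39490 in control. Axl, a receptor tyrosine kinase that helps phagocytes clear dying cells, had log2 signals of 9.61, 9.65 and 8.88 with VPA, against 7.68, 7.70 and 7.46 in control. It rose 3.4-fold (1.77 ± 0.23, adjusted p = 0.0102 by limma, n = 3 per group). Apoe, the lipid carrier apolipoprotein E, read 7.20, 7.04 and 7.54 with VPA, against 6.28, 6.21 and 6.26 in control. It rose 2.01-fold (1.00 ± 0.17, adjusted p = 0.0239). The calls of both ended when any of the control arrays was left out (adjusted p up to 0.0673 for Axl and 0.131 for Apoe over the alternatives). That of Apoe also ended without VPA replicate 2 or 3, without background correction, in the deposited values and with the replicate number as a block.

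Among 40 other dendritic cell genes 38 were named and 23 measured, and 11 were detected on 0 arrays and 18 on all 6. The markers of conventional dendritic cells Zbtb46, Clec9a, Xcr1, Cd209a and Sirpa were among the 11. Siglech, a marker of plasmacytoid dendritic cells, Flt3, Cd74, Cd86, Itgae, Tcf4 and the antigen presentation genes H2-Aa and H2-Ab1 were among the 18. By limma 1 rose and 0 fell, while 5 higher and 2 lower genes had an unadjusted p under 0.05, and the median log2 change was 0.17. The riser was Fscn1, the actin bundling protein fascin of mature dendritic cells, at 9.84, 9.32 and 9.01 with VPA against 5.80, 5.93 and 6.30 in control. It was 10.4-fold higher (3.38 ± 0.25, adjusted p = 0.00108) and was called in all 18 alternatives. The summed linear signal of the measured list was 15060 to 20650 with VPA and 12460 to 13910 in control.

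**Figure D4:**
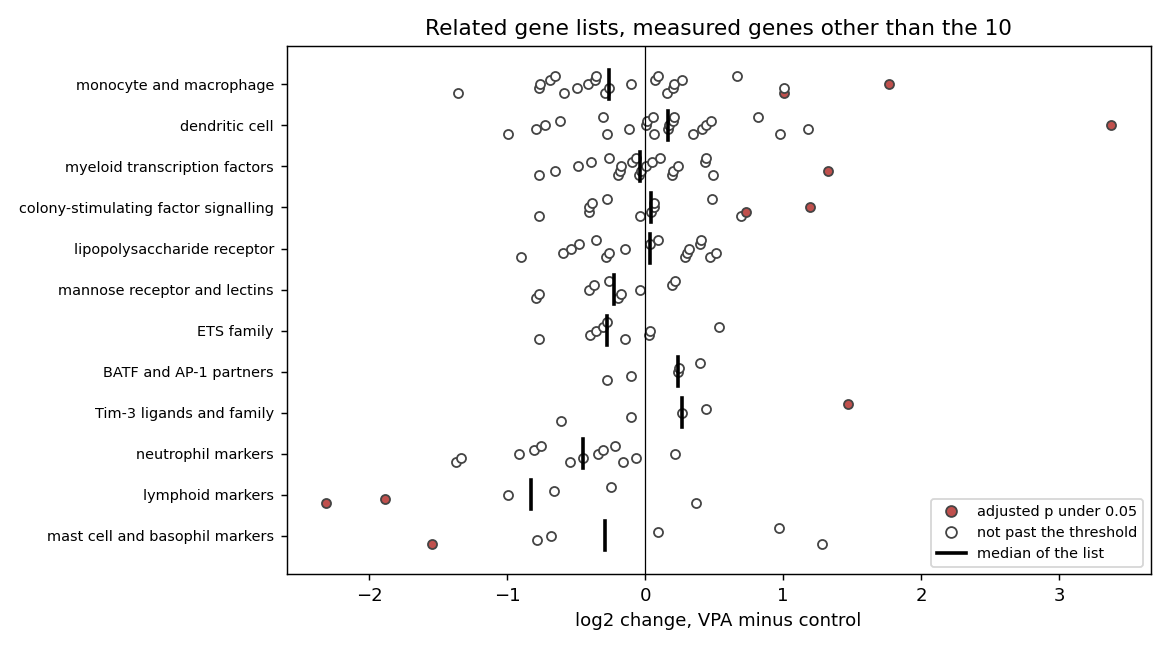
Log2 change, VPA minus control (horizontal axis), of the measured genes in 12 related lists without the 10 genes. Filled points passed limma at adjusted p 0.05, open points did not, and bars are medians. The macrophage list has 2 filled points, Axl and Apoe, and the dendritic list 1, Fscn1, all to the right, while the filled points of the lymphoid and mast cell lists are to the left.

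Of 22 measured myeloid transcription factors, partners and rivals of PU.1 and IRF8, 1 rose and 0 fell by limma, with a median of -0.04, while 3 higher and 2 lower genes had an unadjusted p under 0.05. Egr1, an immediate-early factor linked to macrophage fate, read 11.62, 11 and 11.11 with VPA, against 9.98, 9.96 and 9.80 in control. It rose 2.51-fold (1.33 ± 0.195, adjusted p = 0.0141), and its log2 change was 1.14 without VPA replicate 1. Its call ended without any of the control arrays (adjusted p up to 0.0860). Of 9 measured ETS genes, the family of Spi1, 0 passed in either direction (1 lower at an unadjusted p under 0.05). Gabpa had a log2 change of -0.77 ± 0.21 (adjusted p = 0.122) and Ets1 one of 0.53 ± 0.32, or 0.16 without VPA replicate 1 (adjusted p = 0.431 with all arrays). Of 5 measured AP-1 and related genes (Bach1, Batf, Jdp2, Jun and Junb) 0 passed and 0 had an unadjusted p under 0.05. Jun was at 0.40 ± 0.21 and Batf at -0.28 ± 0.20.

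Among genes of colony-stimulating factor signalling, 2 of 13 measured rose and 0 fell by limma (median 0.04). The receptor chain Csf2rb2 was 2.29-fold higher (1.20 ± 0.20, adjusted p = 0.0229) and the interleukin 3 receptor alpha chain Il3ra 1.66-fold higher (0.74 ± 0.15, adjusted p = 0.0411). Both calls ended without any of the control arrays and without VPA replicate 2 or 3, with adjusted p up to 0.0896 and 0.188. That of Il3ra also ended in the deposited values, with a variance trend in the fit and with the replicate number as a block. Csf2ra, the alpha chain of the GM-CSF receptor, had a log2 change of -0.04 (adjusted p = 0.907). Around Tim-3, 1 of 5 measured genes was called higher and 0 lower. Lag3, a checkpoint receptor of T cells and of plasmacytoid dendritic cells, was detected on 3 of 3 VPA arrays and 0 of 3 control arrays, which makes it at least 2-fold higher. Like Batf3 it passed the detection filter only through the VPA arrays and could enter only as a rise, so its call is no support for one. The Tim-3 ligand Lgals9, galectin-9, had a log2 change of -0.61 ± 0.40 (adjusted p = 0.471).

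The remaining receptor lists held no call by limma with all 6 arrays. Of 10 measured lectins near the mannose receptor 0 passed, 1 was lower at an unadjusted p under 0.05 and 8 lay below 0. Clec10a was at -0.79 ± 0.21 (adjusted p = 0.116) and was detected on 1 of 3 VPA arrays and all 3 control arrays. Without VPA replicate 1 Clec10a was at -0.90 and passed by limma (adjusted p = 0.0414). It also passed with that array left out of the normalisation too and with array weights (0.000948). Over all its alternatives the adjusted p reached 0.380. The control arrays alone carried Clec10a past the detection filter. Without VPA replicate 1 it was detected in control alone and could enter only as a fall, so these passes are no support for one. Mgl2 was at -0.77 ± 0.40, or -0.32 without VPA replicate 1. Of 17 measured genes around the lipopolysaccharide receptor that CD14 serves 0 passed, 3 being lower at an unadjusted p under 0.05, with Ly86 at -0.90 ± 0.37 and the kinase gene Irak1 at -0.60 ± 0.42, or -0.09 without VPA replicate 1. Around the beta-2 integrins, the family of Itgax, 4 genes were measured: Itgb2, Fermt3, Icam1 and Icam2. The alpha chain genes Itgam and Itgad were detected on 0 arrays. For 6 scavenger receptors and lysosomal membrane proteins, relatives of CD68, these 4 genes, and 4 adhesion receptors related to Adgre1, 0 passed. At an unadjusted p under 0.05 there were 0, 0 and 1 (Adgrl4, higher at 0.43 ± 0.18). Scarb1 was at -0.29 and Cd63 at 0.24, Fermt3 at -0.38 and Itgb2 at 0.29, and Adgrg3 at 0.41.

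Markers of other cell types were measured beside these genes. Of 13 measured neutrophil genes 12 lay below 0 and 0 passed, 4 being lower at an unadjusted p under 0.05. Camp was at -1.37 ± 0.38 (adjusted p = 0.119) and Ngp at -1.34 ± 0.40 (adjusted p = 0.145). The median of the 13 neutrophil genes was -0.45, or -0.66 without VPA replicate 1. The summed linear signal of these genes was 46910 to 81060 with VPA and 58050 to 89630 in control, and Cxcr2 and Mmp8 were detected on 0 arrays. Of 6 measured lymphoid genes Dntt, the template-independent DNA polymerase of lymphoid precursors, fell by limma (-2.31 ± 0.25, adjusted p = 0.00524). It was detected on 1 of 3 VPA arrays and on all 3 control arrays, which alone carried it past the detection filter. Its mean with VPA (5.43) lay near the lowest detected signals of the VPA arrays (5.46 to 5.62), so the size of its fall is uncertain. The summed signal of the list was 2933 to 4110 with VPA and 2967 to 3569 in control. The interleukin 7 receptor gene Il7r was at least 2.99-fold lower and called too, but it was detected on control arrays alone and could enter only as a fall. Of 6 measured mast cell and basophil genes 3 lay above 0 and 3 below. At an unadjusted p under 0.05 there were 2 higher and 2 lower. Cpa3, a mast cell carboxypeptidase, fell by limma (-1.54 ± 0.19, adjusted p = 0.00681), a call that ended without control replicate 1 or 3. It was detected on 2 of 3 VPA arrays and on all 3 control arrays. Its VPA signals (5.91, 6.09 and 5.61) lay near the lowest detected ones, so the size of its fall is uncertain. In the deposited values its log2 change was -0.70. Hdc (1.28) and Prss34 (0.97) were higher and not called. Mcpt8, Hdc and Gata2 were detected on all 6 arrays, and Cma1, Mcpt4, Ms4a2, Tpsab1 and Tpsb2 on 0. The summed signal of the list was 6174 to 6624 with VPA and 5393 to 6344 in control. Of 8 erythroid genes Blvrb (2.12-fold) rose, and of 15 stem and progenitor genes Thy1 (9.26-fold) and Cdkn1c (3.19-fold) rose. The log2 change of Cdkn1c was 1.675, or 1.32 without VPA replicate 1. The erythroid gene Epor (at least 1.45-fold higher) and, of 7 megakaryocyte genes, Alox12 (at least 1.41-fold higher) were called as well, but both were detected on VPA arrays alone and could enter only as a rise. The calls of Blvrb, Epor, Alox12 and Cdkn1c ended without any of the control arrays, and those of Blvrb, Epor and Cdkn1c also without VPA replicate 2. Other alternatives ended them too: Epor was called in 5 of 16, Alox12 in 10 of 16, Cdkn1c in 11 of 18 and Blvrb in 12 of 18. The summed linear signal was 4501 to 6592 with VPA and 4137 to 6421 in control for the erythroid genes, and 2336 to 2824 with VPA and 2692 to 2799 in control for the megakaryocyte genes. For the stem and progenitor genes it was 29490 to 31540 with VPA and 24820 to 27120 in control. Their part in the changes of Mrc1, Havcr2, Irf8 and Batf3 was not tested.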

How the data were processed

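The raw signal intensity of each probe and a detection p-value per array were deposited in 1 table, and the submitters' processing notes name GenomeStudio. Judged from the header and the values, the deposited intensities were neither background subtracted nor normalised. The other deposited table gives log2 values (column medians of 6.94), made by a method not given in the sources used here, and served as an alternative. Signals were corrected and normalised with neqc (offset 16, quantile normalisation, log2) in limma 3.58.1 under R 4.3.3. Probes detected on at least 3 of 6 arrays were kept (11115, or 43.3%), and a gene is shown by its kept probe with the highest mean. The groups were compared with lmFit and eBayes, with p-values adjusted over all kept probes. Summed signals are sums of linear normalised values. Arrays limit the precision by their number, and 3 against 3 cannot go below an exact permutation p of 0.1, so none was run. The design text calls the replicates biological and independent. Probe names came from the platform annotation (1 symbol for 23978 probes, none for 1719), and 0 symbols had to be updated by Entrez identifier. No batch is labelled.

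The members and the 18 related lists were chosen with earlier results of these data known. Named genes are all members, up to 4 genes past the threshold of each list (or the 2 with the largest change) and the 3 nearest profiles of each measured member, without clone, LOC, Gm and RIKEN names. Csf2ra and Lgals9 fall outside that rule and, like the genes detected on 0 arrays and those named for the check of cell identity, were named after their values were seen. A probe undetected in a whole group has only a bound there: the mean of the detected group was set against a floor, on each array the lowest signal of any detected probe, or the signal of the probe itself if greater. The procedure was tested on simulated signals. Changes were placed only in kept probes of higher mean signal, so the test says nothing of weak signals such as that of Batf3. No pairing by replicate number was seen: deviations of same-numbered arrays correlated at 0.13, -0.06 and 0.05, and those of different-numbered arrays at -0.11 to 0.15. With 3 arrays per group these correlations cannot exclude that the cultures were set up in pairs. Promoter motifs (PU.1 core, AP-1, E-box, CCAAT, GC box, TATA, IRF repeat and ETS-IRF composite) were searched as exact letters on both strands.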

Additional observations from a re-analysis of the deposited data

How the results depend on the processing

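Each count was recomputed under 18 alternatives. Over all probes 324 were higher and 48 lower with VPA, and of the genes in related lists 12 were higher and 3 lower. Leaving out 1 array at a time gave 65 to 608 probes higher and 7 to 234 lower, 0 to 1 members higher and 0 to 3 lower, a median member change of -0.63 to -0.30, and 2 to 17 list genes higher and 2 to 5 lower. The highest probe counts came without VPA replicate 1 and the lowest without control replicate 1. With that VPA array left out of the normalisation too, 193 probes were lower, 0 members higher and 5 list genes lower. Without background correction 31 probes were lower and 0 members higher. The deposited values gave 31 probes lower, 0 members higher and a median of -0.30. With median scaling 30 probes were lower. The detection limit of 0.01 removed Batf3, leaving 0 members higher and a median of -1.08 over the other 5. Array weights gave 1730 and 1850 probes, 2 members higher, a median of -0.22, and 42 and 35 list genes. At adjusted p 0.01 there were 92 and 9 probes, 3 list genes higher, and 0 and 0 members by the probe shown for each gene, while the second Havcr2 probe passed. With the replicate number as a block 211 probes were higher and 26 lower, and Mrc1, Havcr2 and Batf3 were still called. Of 140 member probe values, 122 moved by less than 1 SD between replicates and 0 called values changed sign. For Batf3, which could enter only as a rise, the sign was fixed in advance. Another detection limit, a variance trend in the fit, the replicate block and the threshold of 0.01 cannot move a log2 change. Part of the 122 was therefore fixed in advance and is no measure of stability. Of the 15 called list genes, Dntt, Fscn1, Thy1 and Il7r were called in every alternative that gave them a value. Il7r could enter only as a fall, and the control arrays alone carried Dntt past the detection filter. Their standing calls are therefore no support for a fall. Low signal over background limits Batf3, Cd14, Itgax and Mrc1, and among the list genes Dntt, Il7r, Clec10a, Cpa3, Lag3, Epor and Alox12 with others.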
